A study of Homo sapiens with 9 samples.

Results

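Aire was set against empty vector in HEK 293 cells, an established human embryonic kidney line, by the RNA that the cells held 72 h after transient transfection. The comparison took every array labelled as Aire and every array labelled with the vector alone (PCMV), 3 against 3, so 6 of the 9 arrays of the study. The other 3 arrays, from cells given MBD-VP16 (named as in the labels), served to estimate the spread and for direct contrasts with Aire. All 3 groups shared the cell line, the 293 transfection reagent and growth in complete DMEM, and each labelled biological replicate gave 1 array. Transient transfection leaves a mixture of cells with and without plasmid, so each value is an average over both. The labels call the replicates biologic without describing how they were separated, every p-value rests on array-to-array spread that may be partly technical, and the small number of arrays limits the precision.

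AIRE, the autoimmune regulator, is a nuclear protein of medullary thymic epithelial cells. It raises the expression of many genes that are otherwise restricted to single tissues, and so lets developing T cells that recognise them be removed. It acts at chromatin and on paused RNA polymerase rather than through one DNA sequence motif. HEK 293 cells are not thymic. Among 8 marker genes of medullary thymic epithelium, AIRE among them, none passed the test described below, against 4.4% of all clusters. That test compares Aire with vector, so it does not show whether the cells express these markers.

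Values are log2 RMA signals per transcript cluster, a set of probes along one transcript, and a difference of 1 is a doubling. Of 25679 clusters with values, 18683 carried 1 gene symbol, 2535 several and 4461 none, and all were tested. One limma model over the 9 arrays gave each difference, Aire minus vector, with its standard error (SE) and a p adjusted by the Benjamini-Hochberg method over all clusters. A cluster is called higher or lower, or said to have risen or fallen, at an adjusted p under 0.05. The array medians of the 6 arrays lay between 6.11 and 6.19, and vector replicate 1 varied most, with a residual SD of 0.191 against at most 0.161 on the others. The cluster for AIRE itself (chromosome 21, 45705763 to 45718102, in the positions of the deposited table, for which no genome build is stated) read 6.32, 6.52 and 6.46 with vector and 6.66, 6.57 and 6.76 with Aire. The Aire arrays all lay above the vector arrays, but the difference of 0.23 ± 0.094 (SE) was not called (limma, adjusted p = 0.213). The labels do not give the species or the extent of the transfected sequence, so the group is named from its label alone.

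Of all clusters, 406 (1.58%) were higher and 725 (2.82%) lower with Aire. In 3162 clusters (12.3%) the 3 Aire arrays all lay above the 3 vector arrays, and in 3235 (12.6%) all lay below, so groups that do not overlap are common and are read against these shares. All 1131 called clusters had such groups, so a lack of overlap adds nothing to a call. The changes were small: the median called difference was 0.44 upward and -0.45 downward, and only 15 called clusters rose and 36 fell by 2-fold or more. Centring each array on its median turned the split from 35.9% to 23.4% of calls upward. Of the 1131 calls, 209 held whichever single array of the 9 was left out, 63 of them higher and 146 lower. The gene lists below were written with earlier results of these data known, so they are described by counts and medians beside these background shares. Where a call was ended by leaving out a single array, brackets after the gene give how many of the 9 arrays did so and the highest adjusted p reached. In bulk RNA, fewer cells of a kind and less RNA per cell cannot be told apart.

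Several of the genes that fell most are targets of YAP and TEAD. YAP is a coactivator that the Hippo kinases hold out of the nucleus, TEAD proteins carry it to DNA, and both respond to cell density, spreading and tension. Its standard target genes encode matricellular proteins, cytoskeletal regulators and growth factors. Below are the 250 bases before the transcription start of 2 such targets that fell, from the RefSeq promoter table (GRCh38.p14), shown because they hold the letters that TEAD proteins bind. Capitals mark CATTCC, on either strand (GGAATG when read along the printed strand), and in ANKRD1 also TGANTCA, the core that AP-1 binds; the 2 motifs do not overlap.
ANKRD1, chr10:90921088-90921337, minus strand: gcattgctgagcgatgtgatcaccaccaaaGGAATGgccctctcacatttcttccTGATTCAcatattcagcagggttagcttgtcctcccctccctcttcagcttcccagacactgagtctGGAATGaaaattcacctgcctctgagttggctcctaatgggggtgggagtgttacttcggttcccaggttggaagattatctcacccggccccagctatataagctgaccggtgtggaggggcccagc
CCN2, chr6:131951373-131951622, minus strand: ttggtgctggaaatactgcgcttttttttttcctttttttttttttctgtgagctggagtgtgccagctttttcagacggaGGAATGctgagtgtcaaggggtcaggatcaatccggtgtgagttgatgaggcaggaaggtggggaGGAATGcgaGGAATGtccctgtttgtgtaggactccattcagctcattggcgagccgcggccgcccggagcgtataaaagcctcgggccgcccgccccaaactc

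The ANKRD1 stretch held CATTCC at 220 and 128 bases and TGANTCA at 195 bases before the start, and the CCN2 stretch 3 matches to CATTCC, at 169, 104 and 95 bases. Across all 27305 promoters of the table, 11.9% held CATTCC and 6.60% TGANTCA in the same window. Of the 18 YAP targets with an entry, 6 held CATTCC: 3 of the 8 that were called lower (ANKRD1, CCN2 and TGFB2) and 3 of the 10 that were not. A match of letters is a description and not a binding site.

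ANKRD1, a cardiac and muscle ankyrin repeat cofactor, read 10.76, 10.85 and 10.84 with vector and 8.15, 8.22 and 8.29 with Aire. The groups lay far apart, and ANKRD1 fell 6.05-fold (log2 difference -2.60 ± 0.071, SE; limma adjusted p = 1.3e-06). CCN2, a secreted matricellular protein once named connective tissue growth factor, read 9.66, 9.55 and 9.50 with vector and 7.59, 7.93 and 7.65 with Aire. It fell by 1.85 ± 0.095, with no overlap. CCN1, its close relative CYR61, read 8.89, 8.94 and 8.87 against 7.60, 7.54 and 7.42, and fell by 1.38 ± 0.077. MYOF, the membrane repair protein myoferlin, fell from 7.44, 7.48 and 7.45 to 6.31, 6.32 and 6.43, a difference of -1.10 ± 0.069. TGFB2, a secreted growth factor (-0.92), AMOTL2, a junction scaffold that binds YAP (-0.76), and AJUBA, a LIM protein that restrains the Hippo kinases (-0.74), fell as well.

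In all, 11 of 25 YAP targets were lower and none higher, against 2.82% of all clusters lower, and the list's median was -0.19 against 0.03 for all clusters. With MBD-VP16 against the same vector arrays, 12 of the 25 were lower and 2 higher, with a median of -0.26. The shares of all clusters there were 5.14% lower and 4.75% higher. A fall of this list was therefore not particular to Aire. The other called targets were CRIM1 (-0.51), FJX1 (-0.48), RBMS3 (-0.39) and GADD45A (-0.27). Among targets that did not pass were AXL (0.077), F3 (0.13) and LATS2 (-0.04), so the list did not move as one. None of the 11 kinases and upstream regulators was called. Of 8 TEAD and coactivator genes, TEAD4 was lower (-0.66) and TEAD2 higher (0.35). Of the 11 lower targets, 7 held whichever array was left out. The calls for CRIM1 (2 arrays, 0.0515), RBMS3 (5 arrays, 0.0811), FJX1 (5 arrays, 0.0918), GADD45A (9 arrays, 0.131) and TEAD2 (9 arrays, 0.12) did not.

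**Figure D1:**
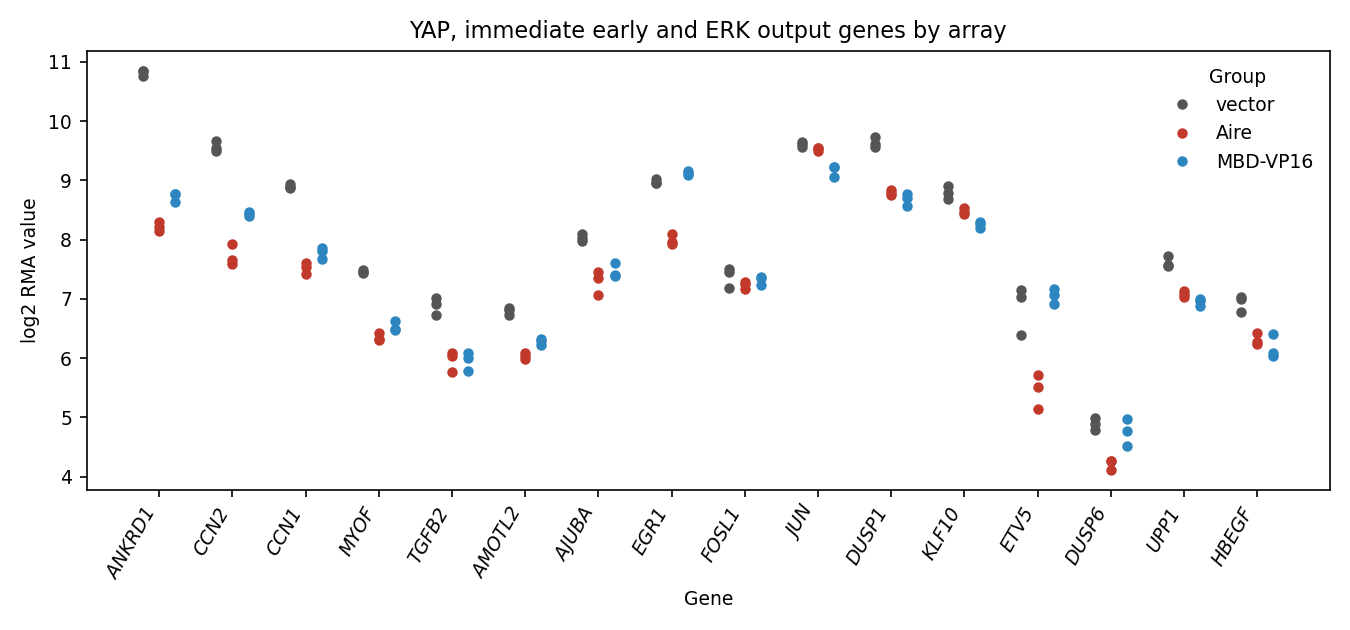
Log2 RMA value (vertical axis) of 16 YAP, immediate early and ERK output genes (horizontal axis) on each of the 9 arrays; each point is 1 array, coloured by group. The Aire points of ANKRD1, from 8.15 to 8.29, lie below its vector points, from 10.76 to 10.85, and EGR1 and ETV5 with MBD-VP16 lie near the level of vector.

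Immediate early genes, which growth factors, serum and stress switch on within minutes, were lower too. Of 36, 11 fell and none rose, with a median of -0.14, and 8 of those calls held whichever array was left out. CCN1 and CCN2 are members of both lists and were counted above. EGR1, a zinc finger factor that is the textbook early response gene, read 8.96, 9.02 and 8.96 with vector and 8.10, 7.93 and 7.96 with Aire. It fell by 0.98 ± 0.068 with tight groups on both sides. PPP1R15A (GADD34), which directs the phosphatase that restarts translation after stress, read 10.30, 10.23 and 10.24 against 9.28, 9.34 and 9.30 and fell by 0.95 ± 0.061. DUSP1, a phosphatase that switches off MAP kinases (-0.84), and GADD45B, a stress sensor (-0.85), fell by a similar amount. Of the 9 AP-1 subunits only JUNB (-0.60) and ATF3 (-0.47) were called. Among 14 effector and feedback genes 8 fell, MCL1, IER2 and ZFP36 among them (-0.43, -0.43 and -0.47). Single arrays ended the calls for MCL1 (3 arrays, 0.0803), IER2 (5 arrays, 0.0918) and ZFP36 (6 arrays, 0.0903).

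Genes that read out the ERK kinases made a separate group of falls. ERK signalling raises the ETS factors ETV4 and ETV5 and its own inhibitors, the SPRY, SPRED and DUSP proteins. Of 35 such genes 8 were lower and none higher (median -0.13, 30 of 35 below 0). ETV5 read 7.15, 7.04 and 6.39 with vector and 5.71, 5.15 and 5.52 with Aire, and fell by 1.40 ± 0.207. Its arrays spread widely within each group, and the groups, like those of every call, did not overlap. UPP1, a uridine phosphorylase that ERK raises (-0.53), ETS1 (-0.48), ETV4 (-0.60), the growth factor HBEGF (-0.62) and the inhibitor SPRED2 (-0.52) also fell. DUSP6 (-0.67) and LIF (-0.87) were lower as well, each read by a cluster that also carries another symbol. The calls for UPP1 and ETV5 held whichever array was left out. Those for DUSP6 (4 arrays, 0.0734), ETS1 (5 arrays, 0.0809), HBEGF (5 arrays, 0.0847), SPRED2 (5 arrays, 0.0991), ETV4 (6 arrays, 0.117) and LIF (8 arrays, 0.129) did not.

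A direct contrast with MBD-VP16 separated some of these falls. Between the 2 transfections, 482 clusters (1.88%) differed at the same threshold, and 50 of these were also called for Aire against vector. The rest of the 1131 calls against vector did not differ from MBD-VP16 by this test, which does not show that they were equal. Some genes described below lay about as far from vector with MBD-VP16 as with Aire. With MBD-VP16 the difference was -1.97 for SNORD38B, -1.60 for SCG3, -0.97 for SNAPC1 and 1.20 for TMT1A. EGR1 read 9.13, 9.15 and 9.09 with MBD-VP16, so Aire minus MBD-VP16 was -1.13 ± 0.068 (limma adjusted p for the contrast = 1.37e-05). ETV5 read 7.17, 6.91 and 7.06 with MBD-VP16, and Aire minus MBD-VP16 was -1.59 ± 0.207 (adjusted p = 0.00402). ANKRD1 read 8.63, 8.77 and 8.77 and CCN2 8.40, 8.43 and 8.47 with MBD-VP16, so both were below vector there, and Aire lay lower still (a difference of -0.50 ± 0.071, adjusted p = 0.00653, and of -0.71 ± 0.095, adjusted p = 0.00487). ZFP36 and GADD45B were also lower with Aire than with MBD-VP16 (adjusted p = 0.00601 and 0.0306). CCN1 did not differ between the 2 transfections by this test (adjusted p = 0.198). Of the 50, 23 had fallen against vector, of which 21 lay below MBD-VP16, and 27 had risen, of which 22 lay below MBD-VP16. Against vector, MBD-VP16 gave 4.75% of clusters higher and 5.14% lower; the 3 vector arrays serve as control in either case, so values are only set side by side.

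The circadian clock list held 6 lower genes of 26 and none higher, with a median of -0.15. Relative to the vector mean, the list's median lay at -0.15, -0.19 and -0.165 on the Aire arrays. On the MBD-VP16 arrays it lay at -0.13, -0.22 and -0.17, so this fall was not particular to Aire. In the clock, BMAL1 and CLOCK activate PER, CRY and NR1D1 genes through E-boxes, and the products repress the activators. The cluster that reads NR1D1 (REV-ERB alpha), which also carries a second symbol, read 9.75, 9.73 and 9.57 with vector and 8.41, 8.36 and 8.35 with Aire, and fell by 1.31 ± 0.071. BMAL1 itself fell by 0.58 ± 0.075. The repressor CIART (-0.90) and PER2 (-0.44) and the output genes USP2, a ubiquitin protease (-0.48), and HLF (-0.51) were called lower. Single arrays ended the calls for CIART (4 arrays, 0.0745), PER2 (9 arrays, 0.119), USP2 (3 arrays, 0.0826) and HLF (6 arrays, 0.104). Aryl hydrocarbon receptor genes fell in 3 of 7 cases: CYP1A1, a xenobiotic oxidase (-0.95), TIPARP, which represses the receptor (-0.62), and AHR, the receptor (-0.30). The calls for CYP1A1 (4 arrays, 0.0791) and AHR (8 arrays, 0.136) were ended by single arrays.

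Many genes that build ribosomes fell, each by a small amount. Ribosome biogenesis begins in the nucleolus, where RNA polymerase I transcribes the ribosomal RNA, small nucleolar ribonucleoproteins modify it, and processing complexes cut and fold it. Of 35 genes for these factors 16 were lower and none higher, 34 had a difference below 0, and the Aire arrays lay below all vector arrays in 27 (background 12.6%). The list's median lay at -0.36, -0.35 and -0.36 relative to the vector mean on the 3 Aire arrays, and at 0.0033, -0.0067 and -0.020 on the vector arrays. On the MBD-VP16 arrays it lay at -0.40, -0.37 and -0.34, so a fall of this size against the same vector arrays was not particular to Aire. RRP12, a ribosome export factor, read 7.48, 7.41 and 7.52 against 6.77, 6.81 and 6.85 and fell by 0.66 ± 0.065. NOP58, a core protein of C/D box small nucleolar ribonucleoproteins, read 10.31, 10.14 and 10.18 against 9.52, 9.61 and 9.48 and fell by 0.67 ± 0.074. DDX21, a nucleolar helicase (-0.61), UTP20, a small subunit processing protein (-0.62), NOP2, a ribosomal RNA methyltransferase (-0.46), and UTP4 (-0.54) followed. The first 5 of these calls held whichever array was left out, and that for UTP4 did not (2 arrays, 0.052). Of the 16 calls, 5 held throughout; leaving out single arrays kept between 6 (without Aire replicate 1) and 13 of them. E-boxes with the letters CACGTG, the preferred site of MYC, stood before 3 of the 29 genes with an entry and before 6.49% of all promoters.

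Other parts of the translation apparatus also held falls. Aminoacyl-tRNA synthetases load each tRNA with its amino acid. Of the 20 cytosolic ones 8 were lower, 1 was higher and the median was -0.22. Relative to the vector mean, the list's median lay at -0.255, -0.23 and -0.25 on the Aire arrays. On the MBD-VP16 arrays it lay at -0.275, -0.32 and -0.26, so this fall was not particular to Aire. VARS1, for valine, read by a cluster with more than 1 symbol, fell by 0.69 ± 0.086, YARS1, for tyrosine, by 0.44 ± 0.060 and TARS1, for threonine, by 0.41 ± 0.058. QARS1, for glutamine, was the exception: it read 8.48, 8.44 and 8.37 with vector and 8.84, 8.96 and 8.89 with Aire, and rose by 0.47 ± 0.065. The QARS1 call held throughout, as did 3 of the 8 falls; 3 were left without Aire replicate 2. Of 82 clusters for tRNA-modifying enzymes, a family added after its values were seen, 17 were lower and none higher (median -0.19), led by TRIT1, which isopentenylates tRNA (-0.88 ± 0.078), and TRMT13, a tRNA methyltransferase (-0.65 ± 0.073). Of those 17 calls 4 held throughout, and single arrays left between 6 (without any one of the 3 Aire arrays) and 16. Mitochondrial ribosomal proteins were lower in 11 of 88 clusters and higher in none (median -0.10), with MRPL1 at -0.73 ± 0.077. The MRPL1 call was the only one of the 11 that held throughout, and single arrays left between 1 (without Aire replicate 1) and 8. Among RNA polymerase I genes, another added family, 3 of 24 clusters fell, 2 of them for TAF1D and 1 for TAF1A (-0.77). Among RNA polymerase III genes, also added, POLR3C (-0.93), GTF3C4 (-0.48) and GTF3A (-0.36) fell and POLR3GL (0.45) rose. None of 19 clusters for RNA polymerase II subunits was called. Single arrays ended the calls for GTF3A (5 arrays, 0.0963), POLR3GL (5 arrays, 0.0994), TAF1A (3 arrays, 0.0712) and both TAF1D clusters (8 arrays, 0.124, and 2 arrays, 0.0678), so no call among RNA polymerase I genes held throughout.

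**Figure D2:**
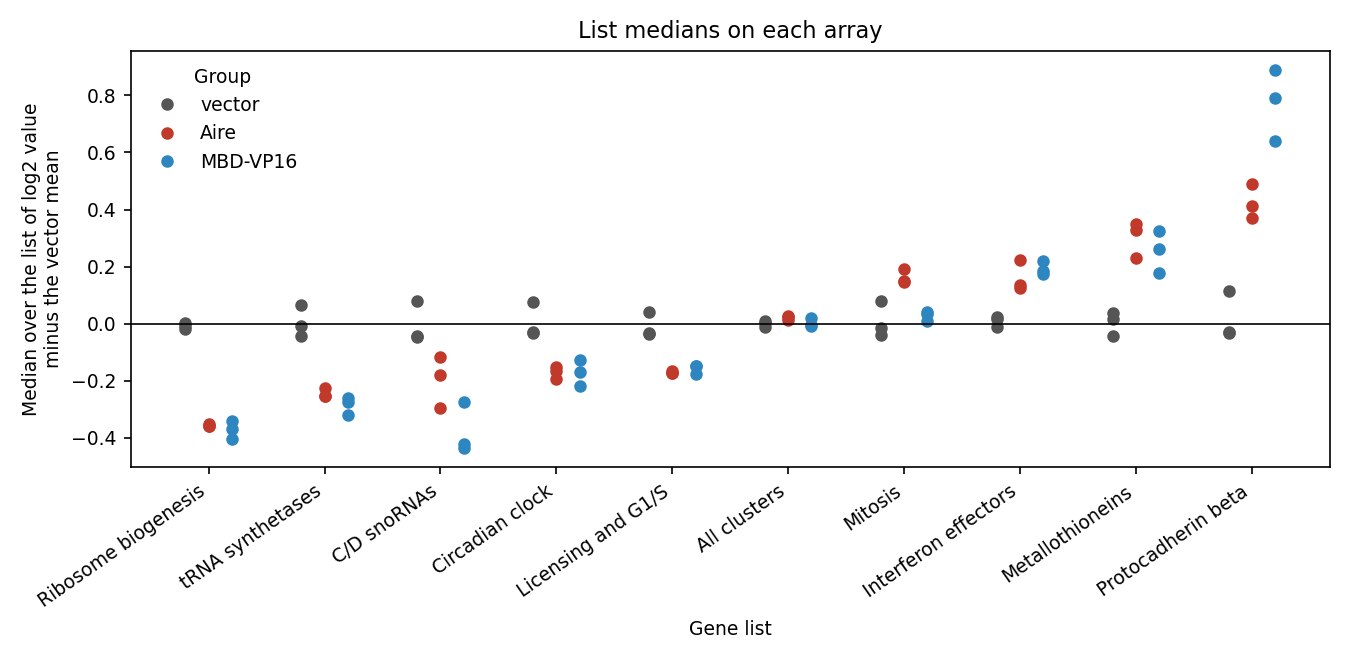
Median over each gene list of the log2 value minus the mean of the 3 vector arrays (vertical axis) on each array, for 9 lists and for all clusters (horizontal axis); each point is 1 array. The 3 Aire points of ribosome biogenesis lie between -0.36 and -0.35, and those of all clusters between 0.013 and 0.027. The 3 MBD-VP16 points of ribosome biogenesis lie between -0.40 and -0.34.

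Small nucleolar RNAs, which guide ribosomal RNA modification and are mostly cut out of the introns of other genes, held the next falls. Of 106 clusters for C/D box RNAs, which guide methylation, 14 were lower and none higher (median -0.20). Of 85 for H/ACA RNAs, which guide pseudouridylation, 9 were lower and 1 higher (median -0.18). Relative to the vector mean, the C/D median lay at -0.18, -0.12 and -0.30 on the Aire arrays. On the MBD-VP16 arrays it lay at -0.27, -0.44 and -0.42. The H/ACA median lay at -0.20, -0.11 and -0.24 with Aire and at -0.27, -0.32 and -0.28 with MBD-VP16. The falls of these families were therefore not particular to Aire. SNORD38B (chromosome 1, 45244061 to 45244130) read 9.63, 9.40 and 9.61 with vector and 7.27, 8.09 and 7.56 with Aire, and fell 3.75-fold (-1.91 ± 0.212). The cluster for SNORD68 (chromosome 16, 89627837 to 89627925), which also carries the symbol RPL13, read 9.78, 9.64 and 9.68 against 7.98, 7.91 and 7.89 and fell by 1.77 ± 0.071. SNORD55 fell by 1.38 ± 0.113 and SNORA10 by 1.23 ± 0.102; SNORA10 is annotated as open to cross-hybridisation. Each of these 4 calls held whichever array was left out, but most others did not: 5 of the 14 C/D and 4 of the 9 lower H/ACA calls held throughout. Single arrays left between 6 (without Aire replicate 1 or 3) and 12 of the C/D calls, and between 4 (without vector replicate 2 or Aire replicate 2 or 3) and 9 of the H/ACA calls.

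Most host genes of the RNAs that fell were not called. By position, 113 clusters of small nucleolar or Cajal body RNAs lay inside exactly 1 gene cluster on the same strand, spread over 75 host genes. Of 12 such small RNA clusters that were lower, the host was lower in 2, TAF1D (8 arrays, 0.124) and TCP1 (7 arrays, 0.104), and not called in 10, and 9 of the 12 lay in ribosomal protein genes. Of the 12 calls, 5 held whichever array was left out and 7 did not. RPS2, the host of SNORA10 and SNORA64 (-1.05 ± 0.141), read 12.26, 12.27 and 12.28 against 12.25, 12.24 and 12.24. The reverse was also seen: SNHG17, a noncoding host transcript, fell from 10.16, 10.16 and 10.24 to 9.14, 9.34 and 9.18 (-0.97 ± 0.072), while the 4 SNORA71 clusters inside it lay between -0.18 and 0.17 and were not called. SNHG12 fell by 0.83 ± 0.059, and none of the 3 small RNA clusters inside it was called. Of 17 clusters that carry both a ribosomal protein and a small nucleolar RNA symbol 7 were lower, against 1 lower and 1 higher of the other 142 ribosomal protein clusters; 4 of these 8 falls held throughout. The mature small RNA and its host's intron cannot be told apart by these probes.

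**Figure D3:**
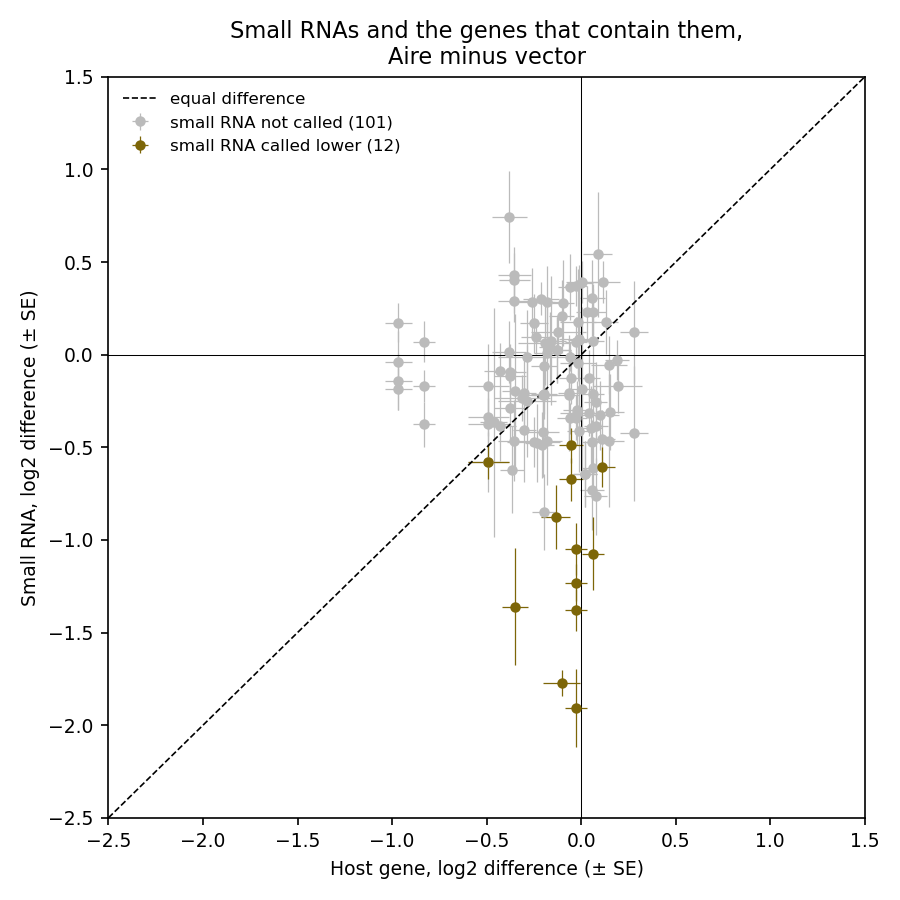
Log2 difference, Aire minus vector, of each of 113 small RNA clusters (vertical axis) against that of the gene that contains it (horizontal axis), with SE bars; the dashed line marks equal differences. The 12 clusters called lower lie mostly below the line near a host difference of 0, and the points of SNHG17 lie at a host difference of -0.97.

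Genes for the making of small nuclear RNAs were lower in 3 of 29 cases: SNAPC1, a subunit of the complex that starts their transcription (8.67, 8.67 and 8.50 against 7.52, 7.58 and 7.30; -1.15 ± 0.091), and the Integrator subunits INTS12 (-0.64) and INTS13 (-0.43). The calls for INTS12 (3 arrays, 0.0774) and INTS13 (9 arrays, 0.121) did not hold throughout. Heat shock proteins fell in 6 of 41 genes, of which 3 held throughout, and rose in 1. HSPB8, a small heat shock protein that works with BAG3 in autophagy of misfolded proteins, read 8.12, 7.81 and 7.83 against 6.90, 6.93 and 7.07 and fell by 0.95 ± 0.094. HSPH1 (-0.55) and HSPA14 (-0.51), both of the large HSP70 family, fell too, and HSPB1 rose by 0.32 ± 0.074, a call ended by single arrays (8 arrays, 0.146). Of 40 genes of the integrated stress response 5 were lower, of which 2 held throughout, among them SLC3A2, the heavy chain of amino acid exchangers (10.84, 10.81 and 10.83 against 10.10, 10.14 and 10.21; -0.68 ± 0.061), and its partner SLC7A5 (-0.31), whose call single arrays ended (8 arrays, 0.116).

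Cell cycle genes differed in direction by phase. Before S phase, ORC, CDC6 and CDT1 load the MCM helicase on DNA; after it, kinases such as PLK1 and AURKB drive mitosis. Of 37 licensing and G1/S genes 7 were lower and 1 higher, with a median of -0.18, and in 24 the Aire arrays lay below all vector arrays (background 12.6%). Of 45 mitosis genes 4 were higher and none lower, with a median of 0.17, and in 28 the Aire arrays lay above all vector arrays and in none below. MCM5 read 8.73, 8.44 and 8.47 with vector and 8.04, 7.86 and 8.01 with Aire (-0.58 ± 0.102), and MCM6 fell by 0.46 ± 0.068. The loaders CDC6 (-0.42) and CDT1 (-0.44), the helicase subunit MCM2 (-0.36) and the helicase partners CDC45 (-0.38) and MCM10 (-0.43) also fell, while GINS4, another helicase partner, rose by 0.40 ± 0.076. PLK1 read 9.47, 9.68 and 9.79 against 10.09, 10.09 and 10.11 and rose by 0.45 ± 0.087. TOP2A (0.29), HMMR (0.27) and AURKB (0.31) were the other mitosis genes called.

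No call among the licensing and mitosis genes held throughout. Among licensing genes, single arrays ended those for MCM6 (2 arrays, 0.0519), CDC6 (2 arrays, 0.0625), CDT1 (3 arrays, 0.0692), MCM5 (3 arrays, 0.0759), CDC45 (5 arrays, 0.0857), MCM10 (6 arrays, 0.114), MCM2 (9 arrays, 0.132) and GINS4 (6 arrays, 0.0906). Among mitosis genes they ended those for PLK1 (4 arrays, 0.086), TOP2A (8 arrays, 0.133), HMMR (9 arrays, 0.154) and AURKB (9 arrays, 0.16). CDKN1A, the inhibitor p21 that p53 induces, read 8.43, 8.29 and 8.33 against 8.88, 8.88 and 8.87, rose by 0.53 ± 0.065 and held its call throughout. Of 28 p53 targets 3 rose, CDKN1A, TP53INP1 (0.53 ± 0.075) and MDM2, the ligase that degrades p53 (0.42 ± 0.068), and 3 fell, PLK2 (-0.72 ± 0.077), AEN (-0.58 ± 0.095) and GADD45A. Of these calls, those for MDM2 (3 arrays, 0.0652), AEN (2 arrays, 0.0624) and GADD45A (9 arrays, 0.131) did not hold throughout.

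**Figure D4:**
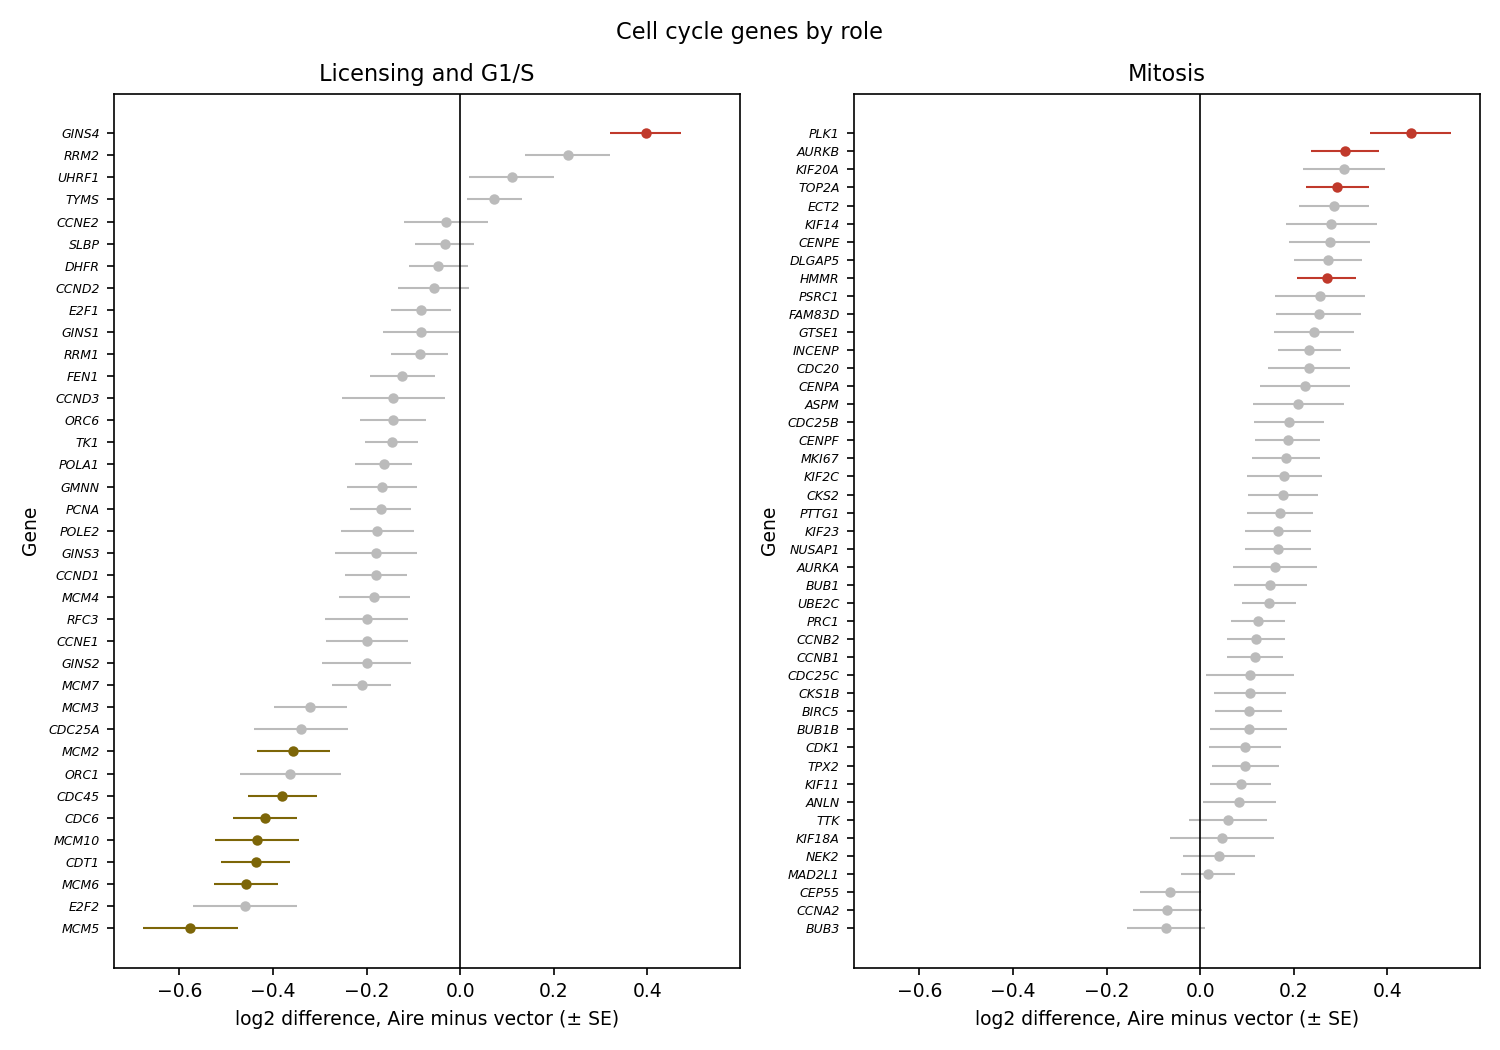
Log2 difference, Aire minus vector, with SE (horizontal axis) for 37 licensing and G1/S genes and 45 mitosis genes (vertical axes); grey points did not pass the test, brown points were lower and red points higher. Most licensing genes lie left of 0 (median -0.18) and most mitosis genes right of it (median 0.17).

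Among the rises, interferon-induced genes and metallothioneins each have a known promoter element. Interferon acts through STAT2 and IRF9 on repeats with the core GAAA, any 2 bases, GAAA, and metals act through MTF1 on the core TGCGCNC. The 250 bases before the start of 2 called genes of each kind are shown, from the same RefSeq table, with the matches on either strand in capitals; in BST2 the 2 matches overlap.
IFI6, chr1:27672193-27672442, minus strand: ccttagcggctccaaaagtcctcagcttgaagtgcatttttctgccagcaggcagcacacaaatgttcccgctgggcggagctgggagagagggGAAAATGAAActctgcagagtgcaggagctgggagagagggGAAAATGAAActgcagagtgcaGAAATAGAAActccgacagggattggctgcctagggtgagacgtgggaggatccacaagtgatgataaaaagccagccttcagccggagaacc
BST2, chr19:17405631-17405880, minus strand: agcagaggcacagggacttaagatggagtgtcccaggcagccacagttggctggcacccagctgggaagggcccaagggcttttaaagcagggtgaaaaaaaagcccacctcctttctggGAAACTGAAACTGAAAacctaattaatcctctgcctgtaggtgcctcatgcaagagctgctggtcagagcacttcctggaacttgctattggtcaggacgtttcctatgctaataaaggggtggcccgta
MT1X, chr16:56682220-56682469, plus strand: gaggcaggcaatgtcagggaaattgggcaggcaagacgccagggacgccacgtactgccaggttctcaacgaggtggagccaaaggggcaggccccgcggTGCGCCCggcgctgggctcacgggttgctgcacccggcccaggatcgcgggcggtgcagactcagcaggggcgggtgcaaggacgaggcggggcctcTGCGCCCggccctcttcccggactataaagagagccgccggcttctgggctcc
MT2A, chr16:56608334-56608583, plus strand: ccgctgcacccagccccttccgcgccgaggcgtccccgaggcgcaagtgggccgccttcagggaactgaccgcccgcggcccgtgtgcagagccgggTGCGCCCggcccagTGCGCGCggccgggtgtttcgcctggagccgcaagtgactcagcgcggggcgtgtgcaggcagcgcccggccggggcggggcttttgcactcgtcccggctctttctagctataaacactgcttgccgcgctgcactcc

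The interferon core stood before 22 of 38 induced effectors with an entry, 6 of the 7 called and 16 of the 31 not called, and before 3.07% of all promoters. The metal core stood before 3 of 5 metallothioneins with an entry and before 16.9% of all promoters.

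Of 46 interferon-induced effectors 8 rose and none fell (median 0.16), beside 1 of 15 sensors and signalling genes, STAT2 (0.53). IFI6, a mitochondrial antiviral protein, read 7.14, 6.90 and 6.98 with vector and 7.98, 7.71 and 7.69 with Aire and rose by 0.79 ± 0.099. BST2 (tetherin), which holds budding viruses at the membrane, read 6.37, 6.29 and 6.52 against 7.35, 6.92 and 7.10 and rose by 0.73 ± 0.116. IFITM1, which blocks viral entry, rose by 0.54 ± 0.083 and stood higher still with MBD-VP16 (9.26, 9.17 and 9.37; adjusted p of the contrast = 0.00038). UBE2L6, the ISG15 conjugating enzyme (0.49), TRIM22, read by a shared cluster (0.86), IFI44L (0.92), LGALS3BP (0.32) and PARP14 (0.39) were the others. Only the call for IFI6 held whichever array was left out. Single arrays ended those for IFITM1 (1 array, 0.0506), BST2 (1 array, 0.0533), UBE2L6 (2 arrays, 0.0726), STAT2 (3 arrays, 0.06), TRIM22 (4 arrays, 0.065), IFI44L (7 arrays, 0.117), PARP14 (8 arrays, 0.135) and LGALS3BP (9 arrays, 0.119). No gene of the 23 for antigen presentation was called.

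Metallothioneins, small cysteine-rich proteins that bind zinc and copper, lay above 0 in 12 of 12 clusters, with a median of 0.31. MT1X (8.39, 8.32 and 8.44 against 8.78, 8.80 and 8.78; 0.40 ± 0.060), MT1F (0.41 ± 0.095) and MT2A (11.27, 11.43 and 11.25 against 11.60, 11.68 and 11.66; 0.33 ± 0.076) passed the test. None of the 3 calls held throughout: MT1X (1 array, 0.0518), MT1F (9 arrays, 0.148), MT2A (9 arrays, 0.143). Metallothioneins are near copies, so their probes may share RNA. None of the 9 genes for the metal sensor and transporters was called. In the lipid list, 5 of 44 genes rose and none fell: the desaturases FADS2 (9.14, 9.13 and 9.16 against 9.77, 9.67 and 9.68; 0.56 ± 0.063), SCD (0.42) and FADS1 (0.30), the sterol carrier STARD4 (0.50) and SREBF2, the factor that switches on sterol genes (0.31). None of the 20 enzymes of cholesterol synthesis was among them. Only the FADS2 call held throughout, and single arrays ended those for SCD (2 arrays, 0.0579), STARD4 (7 arrays, 0.114), SREBF2 (8 arrays, 0.117) and FADS1 (9 arrays, 0.149).

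Genes of the extracellular matrix rose in 7 of 53 cases, and the matricellular CCN2 and CCN1 were the 2 that fell. Of the 7 rises 3 held throughout, and 3 were left without Aire replicate 1. VCAN, the large proteoglycan versican, read 7.79, 7.63 and 7.50 with vector and 8.57 on all 3 Aire arrays, and rose by 0.93 ± 0.090. FN1, fibronectin (9.26, 9.03 and 8.95 against 9.62, 9.70 and 9.67), rose by 0.58 ± 0.085 and FBLN1, fibulin, by 0.56 ± 0.067. GPC3, a cell surface heparan sulfate proteoglycan, rose by 0.76 ± 0.134, a call that single arrays ended (4 arrays, 0.0727). SULF1, which trims sulfate from heparan sulfate, read 6.41, 6.25 and 6.21 against 7.24, 7.22 and 7.17 and rose by 0.92 ± 0.098. Of 46 collagen clusters 39 lay above 0, but only 1 in each direction was called, a share near that of all clusters. Relative to the vector mean, the family's median was -0.17, 0.025 and 0.12 on the vector arrays and 0.11, 0.073 and 0.16 on the Aire arrays. These medians overlapped between the groups. COL14A1 rose by 0.91 ± 0.092 and COL12A1, a relative of the same class, fell by 0.64 ± 0.080. The metalloproteinases MMP14 (0.51), MMP2 (0.64), ADAMTS1 (0.50) and ADAM23 (0.55) rose and MMP19 (-1.10 ± 0.144) fell, of 60. Single arrays ended the calls for ADAM23 (6 arrays, 0.0825), MMP2 (3 arrays, 0.0741) and ADAMTS1 (1 array, 0.0512).

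Guidance genes held calls in both directions. Slit proteins are secreted cues and Robo proteins their receptors; of 15 netrin, Slit and Robo genes 5 rose and none fell (median 0.20), while of 21 Eph and ephrin genes none rose and EFNA1 fell (-0.42) (4 arrays, 0.0692). SLIT2 read 9.64, 9.50 and 9.44 against 10.05, 9.98 and 10.04 (0.50 ± 0.070), and SLIT3 (0.47), ROBO2 (0.38), UNC5C (0.40) and ROBO1 (0.39) rose as well. The SLIT2 call held throughout, and those for SLIT3 (2 arrays, 0.0563), ROBO2 (5 arrays, 0.102), UNC5C (7 arrays, 0.115) and ROBO1 (8 arrays, 0.137) did not. Of 30 semaphorins and plexins 1 rose and 1 fell, near the shares of all clusters (1.58% higher and 2.82% lower). SEMA6A, a semaphorin anchored in the membrane, rose by 0.87 ± 0.099. The secreted SEMA3E fell by 0.67 ± 0.143, a call that single arrays ended (6 arrays, 0.119). Among growth factor genes, of 31 clusters for fibroblast growth factors 1 rose and 4 fell, and none of these calls held throughout: FGF9 rose by 0.33 (8 arrays, 0.102), and FGF21 (-0.61) (3 arrays, 0.0675) and 3 clusters shared by FGF7 and its pseudogenes, with the same values on every array of both groups (-0.75) (4 arrays, 0.0851) fell. IGFBP5, which binds insulin-like growth factors, read 6.31, 5.86 and 5.70 against 7.02, 7.15 and 6.84 and rose by 1.05 ± 0.155. WNT5A, a non-canonical WNT ligand and the only one of 19 clusters for such ligands called, rose by 0.69 ± 0.091, and SOX2, a stem cell transcription factor, by 0.81 ± 0.086 (6.60, 6.52 and 6.50 against 7.53, 7.24 and 7.27). All 4 of IGFBP5, WNT5A, SOX2 and SEMA6A held their calls throughout.

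Retinoid genes, a family added after its values were seen, rose in 5 of 33 clusters and fell in 1. Vitamin A enters cells through STRA6 (0.45), and DHRS3 (0.52) reduces its aldehyde back to it. Retinoic acid is bound by CRABP2 (0.62) and acts on receptors such as RARB (0.83, read by a shared cluster). These 4 calls were each ended by leaving out single arrays: STRA6 (2 arrays, 0.0572), RARB (3 arrays, 0.0584), CRABP2 (3 arrays, 0.0576) and DHRS3 (4 arrays, 0.0889). RBP7 fell by 0.31 ± 0.070 (9 arrays, 0.14), and with MBD-VP16 it lay above Aire (adjusted p of the contrast = 0.000248). Of 7 clusters for APOBEC3 deaminases, also added, 3 rose: APOBEC3H (5.49, 5.40 and 5.44 against 6.23, 6.14 and 6.28; 0.77 ± 0.068), APOBEC3B (0.74 ± 0.079) and the cluster shared by APOBEC3C and APOBEC3D (0.41 ± 0.062), whose call 1 array ended (1 array, 0.0526). Of 9 clusters for beta thymosins, actin-binding peptides added likewise, 7 rose (median 0.46), but 4 of the 7 share the symbol TMSB4X and the same copies, so they are not separate genes. Only 1 of the 7 calls, for a TMSB4X cluster, held throughout. Without Aire replicate 1 only 1 remained, and likewise without Aire replicate 2. Both families lay higher with MBD-VP16 than with Aire. Relative to the vector mean, the APOBEC3 median was 0.36, 0.45 and 0.23 with Aire and 0.67, 0.73 and 0.65 with MBD-VP16. The beta thymosin median was 0.51, 0.48 and 0.44 with Aire and 0.64, 0.66 and 0.61 with MBD-VP16.

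**Figure D5:**
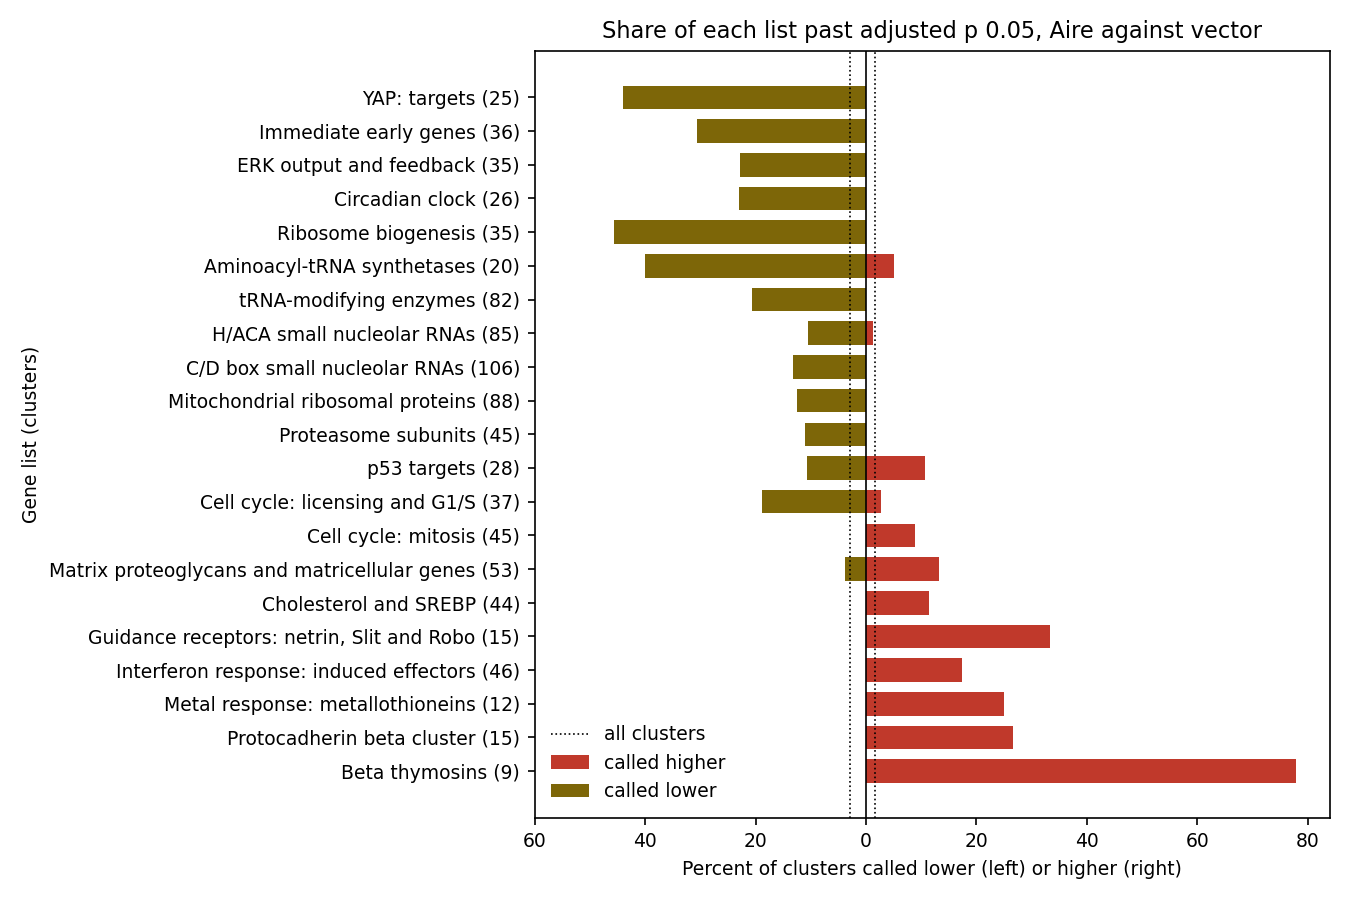
Percent of the clusters of each of 21 gene lists (vertical axis, number of clusters in brackets) that were called lower (left, brown) or higher (right, red) with Aire. Dotted lines mark the shares of all clusters, 2.82% lower and 1.58% higher; YAP targets (11 of 25 lower) and ribosome biogenesis (16 of 35 lower) reach farthest to the left.

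Beyond these lists, the largest rise of a gene with 1 symbol was TMT1A, a thiol methyltransferase of the endoplasmic reticulum (chromosome 12, 51318534 to 51326300), which read 6.48, 5.83 and 5.91 with vector and 7.22, 7.33 and 7.27 with Aire (1.20 ± 0.174). The sodium channel gene SCN9A rose by 1.08 ± 0.123 and CGA, the shared alpha subunit of the glycoprotein hormones, by 1.01 ± 0.126 (4.97, 4.96 and 5.06 against 5.85, 5.87 and 6.30). Falls outside the lists included TNFRSF12A, the receptor of the cytokine TWEAK (10.77, 10.95 and 10.89 against 9.81, 9.87 and 9.77; -1.05 ± 0.069), and the copine CPNE4 (-1.02 ± 0.149). RFPL4A (-2.62 ± 0.086) fell with Aire from 8.31, 8.02 and 8.18 to 5.54, 5.59 and 5.52 and stood at 9.20, 9.37 and 9.29 with MBD-VP16 (adjusted p of the contrast = 3.96e-08); its cluster is open to cross-hybridisation. Multicopy TRIM genes also differed: 1 cluster for TRIM43 and TRIM43B rose by 1.22 ± 0.218 with Aire, and by 5.52 with MBD-VP16. Its Aire call was ended by each of 4 arrays (limma adjusted p up to 0.0694). This cluster too is open to cross-hybridisation. It read 5.16, 4.53 and 4.27 with vector and 6.20, 5.71 and 5.70 with Aire. No call for Aire in this TRIM family held throughout. Among the clusters without a gene symbol the strongest fall lay at chromosome 16, 3202609 to 3202680 (72 bases), from 9.65, 9.86 and 9.65 to 7.31, 7.15 and 7.33 (-2.46 ± 0.141).

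Further families moved in part. Of 26 genes of secretory granules 3 fell, SCG3, a secretogranin that sorts granule cargo (5.15, 5.03 and 5.18 against 3.39, 3.36 and 3.43; -1.73 ± 0.133), the peptide precursor GAL (-0.43 ± 0.060) and SCG2 (-0.48), the last ended by single arrays (2 arrays, 0.0679). BEX1, a small signalling adaptor and the only one of 14 BEX and TCEAL genes called, read 7.95, 7.92 and 8.02 against 6.57, 6.50 and 6.57 and fell by 1.42 ± 0.140. The natriuretic peptide receptor NPR3 fell by 1.02 ± 0.090 and the peptide NPPB by 0.81 ± 0.126 (1 array, 0.0568). NF-kB genes fell in 3 of 37 cases, the subunits NFKB1 (-0.64) (3 arrays, 0.0881) and NFKB2 (-0.41) (8 arrays, 0.134) and the inhibitor of apoptosis BIRC3 (-0.94) (4 arrays, 0.0829). In the protocadherin beta cluster, whose neuronal adhesion genes lie side by side, 14 of 15 clusters lay above 0 with a median of 0.38. Of these, PCDHB13 rose by 0.83 ± 0.114 and held its call. The calls for PCDHB11 (0.80) (3 arrays, 0.0637), PCDHB2 (0.58) (8 arrays, 0.117) and PCDHB7 (0.39) (8 arrays, 0.142) were ended by single arrays. Relative to the vector mean, the family's median lay at 0.49, 0.37 and 0.41 on the Aire arrays. On the MBD-VP16 arrays it lay higher, at 0.89, 0.64 and 0.79. STC1, the secreted hormone stanniocalcin, rose from 5.56, 5.70 and 5.58 to 6.72, 6.45 and 6.45 (0.93 ± 0.095).

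Several lists gave no call in either direction, against 4.4% of all clusters called: 17 genes reported as raised by AIRE in transfected lines, 32 of autophagy and lysosome, 96 potassium channels, 38 defensins and 71 cancer-testis genes. With 3 arrays per group, a missing call does not show that these genes were unaltered. The marker lists for leukocytes (6 measured), fibroblasts (6) and endothelium (5) held no call, and of 14 kidney epithelial markers only KRT18, a keratin, fell (-0.38), a call that single arrays ended (8 arrays, 0.115).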

How the data were processed

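RNA of HEK 293 cells was measured on 9 one-colour arrays, 3 per group. The authors deposited log2 values per transcript cluster, rounded to 2 decimals, which the submitters' processing notes credit to RMA (version and build not given in the sources used here). RMA evens the arrays' distributions and compresses low signals. Of 28829 clusters, 3150 without values were left out. Symbols came from the authors' deposited table, updated through Entrez identifiers (19695 of 20417 matched, GRCh38.p14 names); its 9 per-array columns were not used and equal the values used. Its start and stop positions and cross-hybridisation classes are other annotation values, used as deposited.

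The model was limma 3.58.1 under R 4.3.3 (lmFit, then eBayes, with group as the only factor, 9 arrays, two-sided tests, 2.93 prior and 6 residual degrees of freedom, median SE 0.104). It was checked on arrays simulated as independent draws with the fit's own spreads. Of 50 planted differences of 0.5 it recovered 36%, and of 50 of size 1 it recovered 90%. Many differences of the size of the median call would thus be missed. The simulated arrays held no shared batch or pairing, so the check does not cover these. A gene in a list is read by its cluster with the highest mean, a shared cluster where it has no other. Named genes were, among those past the threshold with non-overlapping groups, the 25 highest and 25 lowest, up to 6 members of a list by adjusted p, all members of lists of up to 8, AIRE, and the 5 highest and lowest clusters with several or no symbols; a part of these is printed, and values of some called members counted in the text are not reported here. Members named although they did not pass, small RNAs beside their hosts, and the genes of the direct contrast were chosen after their values were seen. Members and lists were chosen with earlier results of these data known. Promoter sequences are from RefSeq. Alternatives were other normalizations, filters, fits, the replicate number as a block and each array left out.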

Additional observations from a re-analysis of the deposited data

How the results depend on the processing

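Among 293 named results no difference changed its sign under any setting that gave it a value. For most settings this was fixed in advance. The filters, the fit on 6 arrays, the trend, robust eBayes and the block leave each difference as it was. Leaving out 1 array cannot turn the sign of a call, because the groups of every call lie apart. Only repeated quantile normalization and centring could have done so. The filters on a mean of at least 6 and on clusters with 1 symbol gave values for 247 and 246 of the named results. Leaving out each array in turn gave 87 to 330 clusters higher and 185 to 607 lower (main 406 and 725), 1 to 20 and 31 to 39 of them at least 2-fold, and 312 to 507 different from MBD-VP16; named results then kept their call 1666 times and lost it 971 times. A fit on the 6 arrays alone called 108 higher and 201 lower, and 165 named results lost their call. Clusters with a mean of at least 6 gave 919 higher and 1432 lower, with 22 at least 2-fold lower, since fewer clusters (13703) were tested and low ones left out. An intensity trend in the variance gave 900 higher and 1408 lower, with 24 at least 2-fold higher. Clusters with 1 symbol held 6 at least 2-fold higher among those called. Centring the arrays gave 280 higher and 917 lower and moved the median of all clusters from 0.03 to -0.013. Repeated quantile normalization and robust eBayes kept the counts within 1.5 times. With the replicate number as a block, 207 were higher and 390 lower, and with the block on the 6 arrays alone, an alternative added after the data were seen, 2 and 13, all at least 2-fold. Same-numbered vector and Aire arrays did not deviate together (r from -0.069 to 0.039 over 3 pairs, against -0.093 to 0.079 over the 6 other pairs). For vector and MBD-VP16, same-numbered arrays gave r of 0.13, 0.094 and 0.015, against -0.15 to 0.088 over the 6 other pairs. For Aire and MBD-VP16 they gave 0.013, -0.055 and 0.0023, against -0.060 to 0.058. Correlations over 3 pairs cannot settle whether the numbers pair the samples. Where not stated, the cause of a shift was not tested.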

Other observations

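By chromosome, clusters on X were called higher more often than lower: 27 of 1062 (2.54%) were higher and 7 (0.659%) lower, against 1.58% and 2.82% of all clusters. This was seen in the data and not planned, and it was not tested. Among the X-linked genes that rose are relatives of the MAGE family that, unlike its testis-restricted members, are widely expressed: TRO read 7.20, 7.20 and 7.13 with vector and 7.79, 7.81 and 7.71 with Aire (0.59 ± 0.078), MAGED2 rose by 0.60 ± 0.083, and the cluster shared by MAGED4 and MAGED4B by 0.50 ± 0.074. MAGED1 rose by 0.31 ± 0.069, a call that leaving out any of 8 arrays ended (limma adjusted p up to 0.137). These genes were chosen after their values were seen.

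Of 1185 clusters known by position alone, those of 65 to 76 bases stood apart from the rest: 11 of 295 were higher and 8 lower (6.44%), against 5 of 890 of other lengths (0.562%). The length class was chosen after seeing the data, and the files do not say which RNAs these clusters read.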
